A study of Mus musculus with 9 samples.

Results

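The regions described here are constitutive protein-coding promoter sites of mouse embryonic fibroblasts (MEFs), mapped by ATAC-seq, an assay that reads open chromatin from where the Tn5 transposase can reach DNA. Peaks of the 4 deposited lists were merged on chromosomes 1 to 19. A merged site was taken when each list had at least 1 peak in it and it reached within 1 kb of a transcription start site (TSS) of a protein-coding transcript. This rule returned 13806 sites of 125387, which made up 24.0% of the 57522 sites with a peak in every list (95% Wilson interval 23.7 to 24.4%, autosomes 18.4 to 32.3%). The other constitutive sites comprised 3825 near starts of non-coding transcripts only and 39891 distal sites away from any annotated start. The sites were selected on the peak calls of all 4 lists, so calls and peak heights at them are descriptions without a test.

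The 9 libraries came from primary MEFs below passage 8. WT MEFs and Anp32e null MEFs, from embryos without the histone chaperone ANP32E, were untransfected and had 3 libraries each. Anp32e null MEFs were also transfected, using Lipofectamine RNAiMax, with a non-targeting (NT) siRNA pool (1 library) or a pool of 4 siRNAs against H2A.Z (2 libraries), so that the knockdown was made in cells lacking ANP32E and no siRNA group was WT. Strain, sex, embryonic age and the number of embryos were not given in the sources used here. The authors merged the libraries of each group before calling peaks. Each group was therefore 1 list, no difference between lists had a replicate check, and intervals and counting errors cover fragment or site counts only. A peak also cannot tell more cells with an open site apart from a site that is more open in each cell.

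Promoters are where general transcription factors and RNA polymerase II assemble, in a nucleosome-depleted stretch beside the TSS. Promoters of broadly expressed genes mostly lie in CpG islands, GC-rich DNA that has kept its CpG dinucleotides and binds factors such as SP1, NF-Y, NRF1 and ETS proteins. The histone variant H2A.Z sits in nucleosomes flanking active TSSs. The SRCAP remodeler places it there, and ANP32E is a chaperone that takes it away.

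The bases just before the TSS show what kinds of promoter were open in every list. For each consensus sequence searched, the promoter with the highest peaks and a match in the 150 bases before its TSS was identified. Of these, 6 are printed to show a range from GC-rich sequence to sequence with a TATA match. Anp32e, H2afv (a gene for H2A.Z) and Sp1 follow as genes of the study. Each line runs 5′ to 3′ toward the TSS on the mm10 (GRCm38) reference and overlaps no annotated exon. Capitals mark every match to any of 13 consensus sequences on either strand, and matches to different ones may overlap.
Stpg2: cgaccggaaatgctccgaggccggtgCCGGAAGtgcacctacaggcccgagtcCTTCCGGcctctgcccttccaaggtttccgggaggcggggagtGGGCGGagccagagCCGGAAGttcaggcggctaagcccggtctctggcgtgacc
Depdc1a: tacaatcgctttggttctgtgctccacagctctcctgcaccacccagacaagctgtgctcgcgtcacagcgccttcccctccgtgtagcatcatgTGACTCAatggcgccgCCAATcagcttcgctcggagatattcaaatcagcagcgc
Tbc1d32: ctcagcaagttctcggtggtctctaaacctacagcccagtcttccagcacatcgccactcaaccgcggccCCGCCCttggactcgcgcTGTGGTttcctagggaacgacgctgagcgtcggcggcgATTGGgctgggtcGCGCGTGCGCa
Cenpw: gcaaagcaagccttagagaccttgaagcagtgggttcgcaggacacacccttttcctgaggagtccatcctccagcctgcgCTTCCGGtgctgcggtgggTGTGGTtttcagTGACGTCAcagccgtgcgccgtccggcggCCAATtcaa
Zfp617: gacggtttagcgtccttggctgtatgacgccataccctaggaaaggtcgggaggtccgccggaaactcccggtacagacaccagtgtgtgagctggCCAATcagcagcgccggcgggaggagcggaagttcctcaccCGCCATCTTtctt
Dnajc24: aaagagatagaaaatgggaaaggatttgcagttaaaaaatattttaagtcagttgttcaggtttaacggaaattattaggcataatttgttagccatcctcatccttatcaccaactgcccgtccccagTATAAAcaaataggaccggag
Anp32e: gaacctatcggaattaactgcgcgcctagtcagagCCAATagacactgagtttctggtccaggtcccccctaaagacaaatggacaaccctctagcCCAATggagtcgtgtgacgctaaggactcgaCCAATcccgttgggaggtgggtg
H2afv: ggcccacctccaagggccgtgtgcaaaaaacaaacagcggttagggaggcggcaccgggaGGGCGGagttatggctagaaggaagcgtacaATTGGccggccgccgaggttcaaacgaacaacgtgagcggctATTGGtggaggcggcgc
Sp1: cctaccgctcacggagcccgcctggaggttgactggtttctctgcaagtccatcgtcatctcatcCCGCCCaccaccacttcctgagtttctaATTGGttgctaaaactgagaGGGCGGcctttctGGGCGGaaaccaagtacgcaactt

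The windows are Stpg2 chr3:139205544-139205693 (plus strand), Depdc1a chr3:159495283-159495432 (plus strand), Tbc1d32 chr10:56228690-56228839 (minus strand), Cenpw chr10:30200561-30200710 (minus strand), Zfp617 chr8:71922702-71922851 (plus strand), Dnajc24 chr2:106003550-106003699 (minus strand), Anp32e chr3:95929096-95929245 (plus strand), H2afv chr11:6444444-6444593 (minus strand) and Sp1 chr15:102405993-102406142 (plus strand). The consensus was CCAAT for NF-Y, GGGCGG for SP1, CCGGAAG for ETS factors, TGANTCA for AP-1, TGACGTCA for CRE, AANATGGCG for YY1, CACGTG for the E-box, GGAATG for TEAD, TGTGGT for RUNX, ACTACAA for ZNF143 and TATAAA for the TATA sequence, and NRF1 and CTCF were searched by a longer consensus. Stpg2 held 3 ETS matches and 1 SP1 match. Cenpw, which encodes a centromere protein, held CRE, ETS, NF-Y and RUNX matches, and in Tbc1d32, a gene of cilium assembly, an NRF1 match began 11 bases before the TSS. Dnajc24, for a DNAJ-type co-chaperone, had a GC content of 36.7% in these bases and a lone TATA match beginning 21 bases before the TSS. Anp32e had 3 NF-Y matches and no other, whereas Sp1 had 3 SP1 matches and 1 NF-Y match. Among all sites, 52.9% had an SP1 match in the 150 bases before the nearest TSS, compared with 35.1% of all 52101 autosomal protein-coding TSSs. The latter count every annotated start of a gene and include the starts at these sites. The corresponding shares were 26.5% and 23.7% for NF-Y, 10.0% and 7.16% for ETS, 6.07% and 4.17% for NRF1, and 3.44% and 6.38% for TATA. A match describes letters and is not a bound site.

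The lists were of unequal depth. The background, meaning the fragments expected at an average position of the genome, came to 8.85, 5.12, 3.88 and 17.8 in the order WT, null, NT siRNA, H2A.Z siRNA, which is kept wherever 4 values are given. The lists held 81848, 80433, 87116 and 105816 autosomal peaks. The number of fragments over each summit, called the pileup below, was recovered from the deposited fold enrichment and p-value of the peak. As a check of cell identity, 13 of 15 fibroblast markers had a constitutive promoter site, including Fn1, Vim, Pdgfra, Col1a1 and Col1a2, but not Lum or Thy1. Such a site was found for 1 of 10 T cell, 1 of 10 germ cell, 2 of 10 hepatocyte, 3 of 10 macrophage, 3 of 10 keratinocyte and 3 of 10 skeletal muscle markers. It was found for 5 of 10 pluripotent cell, 6 of 10 endothelial and 7 of 10 neuron markers, compared with 64.4% of all protein-coding genes. The defining genes Cd3e, Ptprc, Alb and Krt5 had no promoter peak in any list.

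Promoter sites were shared by the lists more often than other sites were. Of merged sites at protein-coding promoters 79.7% had a peak in every list, 4.64% in 3, 6.45% in 2 and 9.22% in 1. Elsewhere, 40.5% of merged sites had a peak in every list. At the constitutive promoters a TSS lay inside the site in 12389 cases (89.7%), within 500 bp of its edge in 777 and farther off in 640. The 131 sites just inside the 1 kb limit, in the outermost 100 bp of the window, had median fold percentiles of 45.8, 41.6, 45.0 and 52.9. The 145 sites in the next 100 bp outside had 46.0, 43.2, 43.7 and 52.4. Sites that held the TSS had 81.5, 79.6, 79.1 and 81.5. The values at the limit thus ran on without a step, and lay far below those of sites containing a TSS.

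Peaks at constitutive promoters were high and wide. The fold percentile ranks a peak's enrichment over local background among all autosomal peaks of its list. Its median was 79.4, 77.2, 76.7 and 79.6, compared with 58.3, 59.1, 61.1 and 68.5 at constitutive distal sites. Median pileups were 137, 122, 227 and 866 fragments at promoters and 56, 50, 67 and 268 at distal sites. Merged promoter sites had a median length of 1352 bp (quartiles 1058 and 1693) and distal sites one of 844 bp. The local background was raised as well, at 2.02, 2.56, 4.73 and 4.44 times the genome-wide value at promoters and 1.17, 1.29, 1.58 and 1.61 times at distal sites. Since fold is divided by that background, percentiles understate a tall peak in an open neighbourhood, and by pileup alone the promoter medians were 84.9, 83.9, 87.2 and 89.1.

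**Figure D1:**
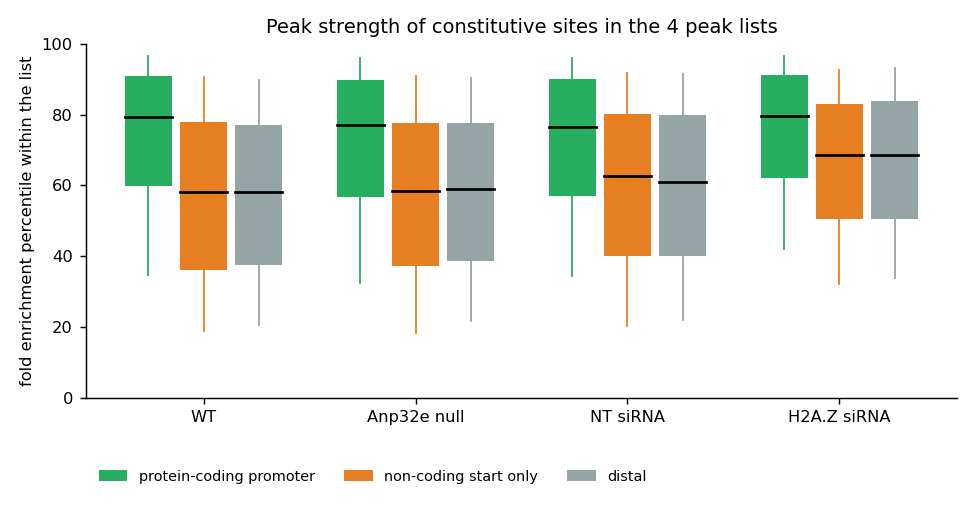
Fold enrichment percentile of the highest peak at each site within its own list (vertical axis, percentile among autosomal peaks), for constitutive protein-coding promoter sites, sites at non-coding starts only and distal sites in the 4 lists. Boxes give the quartiles and the median and whiskers the 10th and 90th percentiles; the promoter medians lie between 76.7 and 79.6 in the 4 lists, and the distal medians between 58.3 and 68.5.

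Not all constitutive promoters were strong. In 1538 (11.1%) the lowest of the 4 percentiles was 25 or less, and in 349 it was 5 or less. The highest mean percentiles belonged to the zinc-finger genes Zfp970 and Zfp619, to Sucla2 (a succinyl-CoA ligase subunit), to the site between Wdfy1 and its neighbour, and to Cox16 (cytochrome oxidase assembly). Zfp970 had pileups of 368, 298, 163 and 498. It lies in a cluster of near-identical zinc-finger genes, and how the alignment divided reads among copies was not tested. At the other end were Tshz1, Rdh5 and Cdc42ep4. Rdh5, for a retinol dehydrogenase, had a mean percentile of 0.45 with pileups of 121, 125, 157 and 730, which were above the median pileup of all peaks in each list (50, 43, 54 and 156), so a low rank by fold was not a low number of fragments. The longest sites were at Rara (4922 bp), the gene of a retinoic acid receptor, Pcdh7 (4891 bp) and Zmiz1 (4617 bp).

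Most protein-coding genes had such a site. It lay at 13354 of 20722 autosomal protein-coding genes (64.4%, interval 63.8 to 65.1%), from 51.2% on chromosome 7 to 78.3% on chromosome 12. A further 5903 genes (28.5%) had no promoter peak in any list, and 1465 had one but no constitutive site. More than 1 site was found at 1539 genes and 3 or more at 239. The most were 6, at Plec (a cytoskeletal linker), Tcf4 (a basic helix-loop-helix factor) and Tspan9 (a tetraspanin), which have alternative starts.

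Genes for functions that every cell needs were covered nearly in full. All 78 mitochondrial ribosomal protein genes, all 34 aminoacyl-tRNA synthetase genes, all 51 genes of complex I and ATP synthase, all 38 of RNA polymerase II and its general factors, all 30 Mediator genes and all 38 replication genes had a constitutive promoter site. So did all 26 cyclin and CDK genes, all 28 genes for H2A.Z, its chaperones and remodelers, and all 22 SWI/SNF genes. Cytosolic ribosomal proteins reached 76 of 79, without Rpl10l, Rpl39l and Rpl3l, which are tissue-restricted copies. The proteasome reached 36 of 38, without the testis subunit Psma8 and the thymus subunit Psmb11. Translation initiation factors reached 43 of 44, without the oocyte form Eif4e1b. Replication-dependent histone genes, which lie in clusters of near-identical copies, reached 59 of 67, and the median of their mean percentiles was 67.7.

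Tissue-restricted families stood at the other end. A site was found at 7 of 1085 olfactory receptor, 3 of 325 vomeronasal receptor and 6 of 91 keratin-associated and cornified protein genes. Hox genes, which set position along the body axis, were intermediate at 22 of 39. Of 10 neuron markers 7 had a site, including Tubb3, Syt1, Snap25 and Nefl, and Neurod1, Slc17a7 and Stmn2 had no promoter peak at all. An open promoter in this sense was therefore found also at genes named for other cell types. The median of the mean percentile was 80.7 over all genes with a site, 92.8 for replication, 92.0 for aminoacyl-tRNA synthetase and 90.9 for Mediator genes. It was 50.6 for fibroblast markers and 45.5 for Hox genes. The genes that mark the cell type thus had lower peaks, relative to their surroundings, than the genes of replication.

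**Figure D2:**
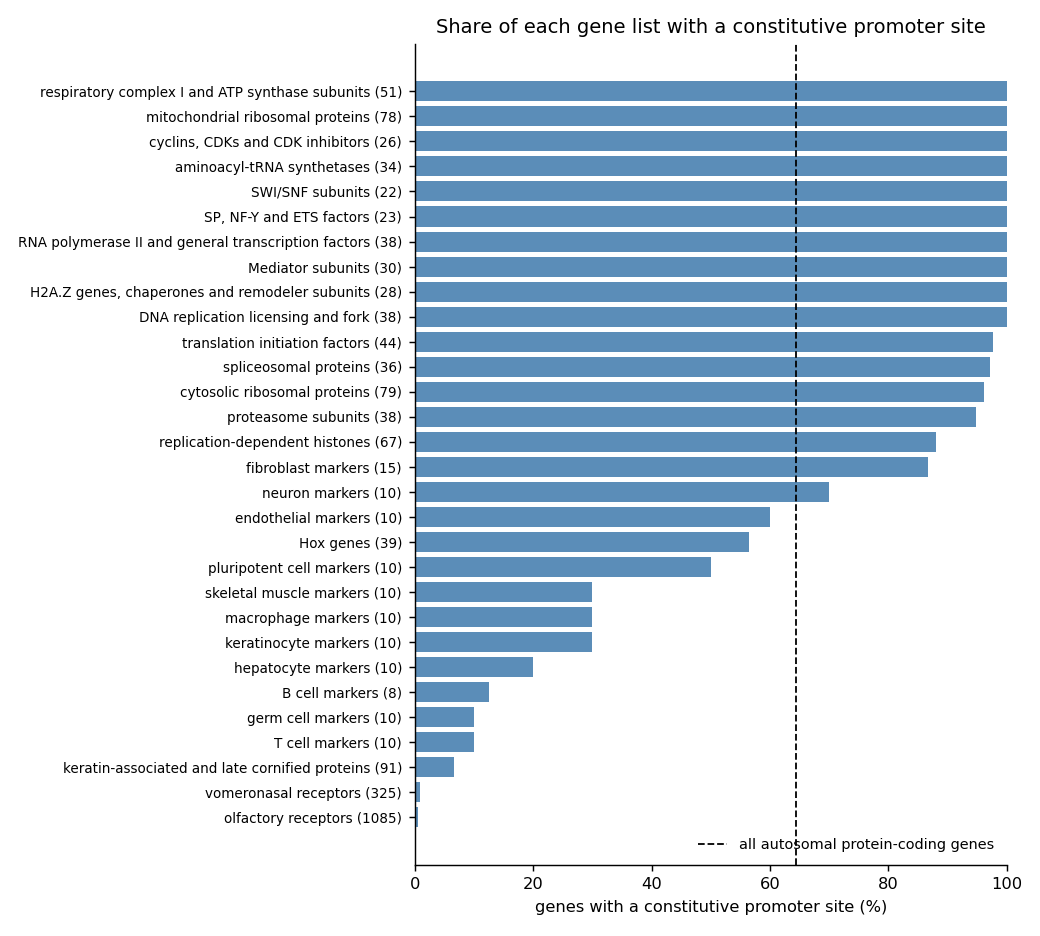
Share of the genes of each list with a constitutive promoter site (horizontal axis, percent of the autosomal genes in the list, whose number is in parentheses), by list, with all protein-coding genes as the dashed line. Mitochondrial ribosomal proteins, aminoacyl-tRNA synthetases, Mediator and replication genes reach 100%, all genes 64.4%, Hox genes 56.4% and olfactory receptors 0.645%.

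Sequence content, which the rule did not use, set the promoters apart from distal sites. In a window reaching 100 bp to either side of the WT summit, the median GC content was 64.2% and the median ratio of observed to expected CpG was 0.79. At distal sites these were 47.3% and 0.20, and around all protein-coding TSSs 59.2% and 0.59. By a minimum of 55% GC and an observed to expected ratio of 0.6, 68.4% of promoters and 2.15% of distal sites were CpG-rich. CpG-rich promoters had a median WT percentile of 83.2 and the remaining 4357 one of 65.5.

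Consensus sequences differed in the same windows (for TSSs, windows of that length around the TSS). An SP1 match was found at 45.1% of constitutive promoters, 37.8% of all protein-coding TSSs and 4.77% of distal sites. ETS matches were found at 10.4%, 8.67% and 1.12%, and NRF1 matches at 4.75%, 4.41% and 0.180%. AP-1, the dimer of FOS and JUN proteins, was most frequent at distal sites, with 6.48%, 3.97% and 37.7%, as was TEAD with 8.53%, 7.91% and 24.3%. Windows on summits and on TSSs are not the same bases. In the 150 bases before the TSS, AP-1 was at 3.0% of constitutive promoters and 3.46% of all protein-coding TSSs, and TEAD at 5.87% and 6.44%. NF-Y hardly distinguished the classes, with 24.8%, 24.5% and 23.7%. The TATA sequence was at 2.88% of the promoters, 6.82% of all protein-coding TSSs and 10.8% of distal sites. GC content differs between the classes, and its part in the shares was not tested.

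**Figure D3:**
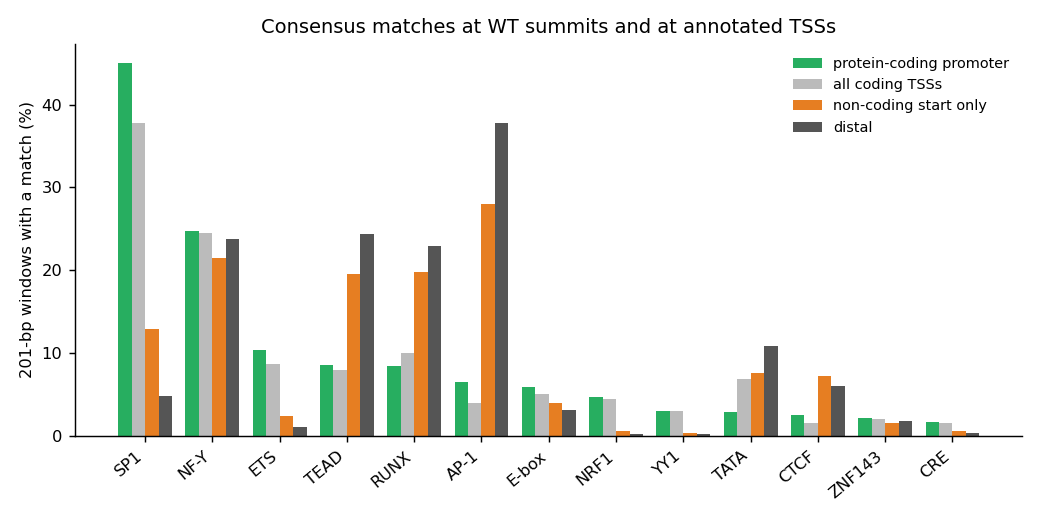
Share of windows with a consensus match on either strand (vertical axis, percent), by consensus, around WT summits of constitutive protein-coding promoter sites, of sites at non-coding starts only and of distal sites, and around all autosomal protein-coding TSSs. SP1 is at 45.1% of the promoter sites and 4.77% of the distal sites, AP-1 at 6.48% and 37.7%.

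Summits clustered at the TSS. Relative to the nearest protein-coding TSS the median summit lay 24, 11, 8 and 11 bp downstream. Within 100 bp of the TSS were 42.4%, 46.3%, 48.4% and 48.1% of summits, respectively. Between null and WT, the summit of a site moved by a median of 43 bp without a preferred side, as the median signed move was 0 bp.

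Peaks reached farther into the gene than away from it. At the 11232 sites where the TSS lay inside the peaks of every list, the median reach was 487, 472, 446 and 532 bp upstream and 662, 646.5, 633 and 747 bp downstream. The downstream arm was the longer in 66.7 to 69.3% of sites. Null peaks differed from WT peaks by a median of −5 bp on either side. H2A.Z siRNA peaks were longer than NT siRNA peaks by a median of 51 bp upstream and 66 bp downstream, at 88.2% and 89.4% of these sites. The H2A.Z siRNA list was also the deeper by its background, and depth and treatment cannot be told apart in peak length.

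**Figure D4:**
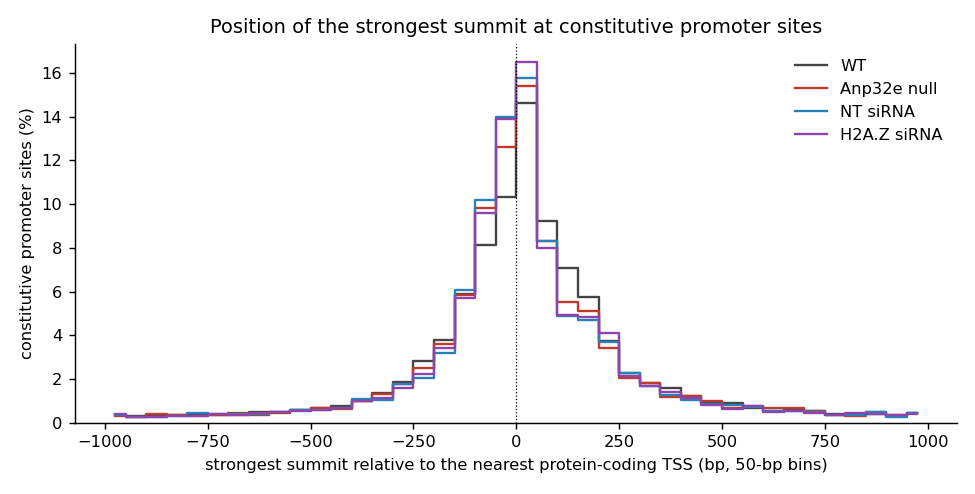
Position of peak summits relative to the nearest protein-coding TSS (horizontal axis, bp, negative upstream, bins of 50 bp) against the percent of constitutive protein-coding promoter sites (vertical axis), with a line per list. The lists peak at the TSS, and between 42.4% and 48.4% of summits lie within 100 bp of it.

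Some sites served a pair of divergent genes. At 1009 sites (7.31%) protein-coding TSSs faced away from each other within 1000 bp. Their median percentiles were 87.1, 85.4, 83.5 and 85.7, compared with 78.3, 76.2, 75.9 and 78.9 at the other sites, and their median length was 1513 bp compared with 1336 bp. An example is the site shared by Gabpa, for an ETS factor, and Atp5j, for an ATP synthase subunit, with pileups of 417, 554, 470 and 1802.

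The comparison of Anp32e null with WT MEFs asks how accessibility at these promoters differs without ANP32E. Ratios are log2 ratios of pileup over genome-wide background, centred on the median of all autosomal sites called in both lists, which removed a shift of 0.59. Constitutive promoters had a median of 0.050 (SD 0.33 across sites, median counting error 0.18) and ranged by autosome from −0.16 on chromosome 14 to 0.31 on chromosome 18 (SD 0.15 over 19 autosomes). The distal median was 0.020, and it moved with the same autosomes. Promoters were above 0 on 13 of 19 autosomes and above distal sites on 19. At least 1.5-fold higher in null were 411 sites (2.98%), compared with 7.32% of all sites called in both lists. At least 1.5-fold lower were 584 (4.23%), compared with 10.6% of all. Both shares were below the background.

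The split between higher and lower depended on the scaling. Without centring, 7916 sites were at least 1.5-fold higher in null and 33 lower. The shift of 0.5905 is more than log2 of 1.5 (0.585), so any site above 0 after centring passes as higher. Above 0 were 7839 of the 13806 promoters and 32245 of the 64502 sites called in both lists. The count of 7916 therefore mostly restates the shift, and the share of all sites lower without centring was not computed. Scaled on the 1000 strongest shared sites, 93 were higher and 1603 lower, and the median was −0.19. That scale shifts every site by −0.24, and the share of all sites past 1.5-fold on it was not computed. With each autosome centred on its own sites, 249 (1.80%) were higher and 519 (3.76%) lower, compared with 6.01% and 10.5% of all sites. A direction of the promoters as a group therefore could not be read from these lists. The SD of promoters was the smaller in each of 5 bands of the geometric mean of both pileups. Among sites with 100 to 200 fragments, 2.49% of promoters were higher and 1.35% lower, compared with 10.1% and 4.01% of distal sites, and the SD was 0.28 compared with 0.39. At 25 to 50 fragments the SDs were 0.42 and 0.49, and the share lower in null was 14.8% of promoters and 13.3% of distal sites.

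Single promoters differed by several times between the genotypes. St8sia4, for a polysialyltransferase, had pileups of 43, 168, 93 and 298 and a null to WT log2 ratio of 2.17 (counting error 0.25). Slc5a7, the choline transporter of cholinergic neurons, followed with 31 and 99 fragments (1.87), then the tyrosine kinase gene Frk with 93 and 241 (1.57), the glycosyltransferase gene Galnt14 with 83 and 206 (1.51) and Ankrd1, a target of YAP signalling, with 48 and 114 (1.45). The lowest was Thbd, for the anticoagulant receptor thrombomodulin, with pileups of 222, 45, 54 and 261 and a ratio of −2.10 (counting error 0.24). Emc9 had 108 fragments in WT and 31 in null (−1.60), Ccser2 202 and 62 (−1.50), Lmo7 97 and 32 (−1.40), and Cd55, for a complement inhibitor, 165 and 55 (−1.39). Of the lowest 5, Emc9, Ccser2 and Lmo7 lie on chromosome 14, whose promoters had the lowest median. Slc5a7 and Galnt14 lie on chromosome 17, with a promoter median of 0.24.

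After centring, few genes of the essential groups were past 1.5-fold, as was the case for genes in general. Gene groups were read at the site with the highest mean percentile of each gene, a site shared by genes being counted once. Over the 12100 such sites of all protein-coding genes, 336 were at least 1.5-fold higher in null and 472 lower. Of 38 replication genes 1 was at least 1.5-fold higher in null, Rfc4, a clamp loader subunit, with 174 and 256 fragments (0.76, counting error 0.14), and none was lower. Of 76 cytosolic ribosomal protein genes 1 was lower, Rpl19, with 100 and 49 fragments (−0.83, counting error 0.25). Of 35 spliceosomal genes 1 was lower, the imprinted gene Snrpn, with 84 and 27 fragments (−1.44, counting error 0.32). Complex I and ATP synthase had 2 of 51 sites higher. Mediator had 1 of 30 and mitochondrial ribosomal proteins 1 of 77 lower, and the proteasome had none either way. Without centring, 27 of 38 replication, 46 of 76 cytosolic ribosomal protein and 23 of 35 spliceosomal sites were at least 1.5-fold higher, as were 50 of 77 mitochondrial ribosomal protein, 41 of 51 complex I and ATP synthase and 22 of 36 proteasome sites. On that scale any site above 0 after centring passes, as 6987 of the 12100 sites of all genes were. These counts therefore mostly restate the shift. In the H2A.Z group of 28 genes the median was 0.15, compared with 0.056 over all genes with a site, and Brd8, a bromodomain subunit of the NuA4 complex, was the highest with 144 and 199 fragments (0.67, counting error 0.16). Spliceosomal, complex I and ATP synthase, and RNA polymerase II genes had medians close to that, at 0.13 each. Translation initiation factors were at −0.014. On the scale of the 1000 strongest sites the median of the H2A.Z group was −0.090.

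The comparison of H2A.Z siRNA with NT siRNA asks how the same promoters differ when H2A.Z is depleted in cells without ANP32E. After removal of a shift of −0.27 common to all sites, promoters had a median log2 ratio of −0.034 (SD 0.30 across sites, median counting error 0.11, autosomes −0.062 to 0.026). Distal sites had a median of 0.049, and promoters were below distal sites on all 19 autosomes. At least 1.5-fold higher after H2A.Z siRNA were 287 promoters (2.08%), compared with 8.55% of all sites called in both lists, and 519 (3.76%) were at least 1.5-fold lower, compared with 8.22%. Both shares were below those of all sites, but not at every pileup. Where the geometric mean of both pileups was 25 to 50, 30.5% of promoters and 16.5% of distal sites were lower, at 50 to 100 fragments 15.4% and 10.9%, and at 100 to 200 fragments 7.86% and 6.84%. At 200 to 400 fragments the shares were 1.91% and 3.47%. Without centring, 71 were higher and 2101 lower. With the 1000 strongest sites as the scale the median was 0.021, with 388 higher and 404 lower. The sign of the median was therefore not fixed by these lists. The shares of all sites past 1.5-fold on these scales were not computed, so these counts have no background to be read against. Autosome centring left 286 and 524, with 8.53% of all sites higher and 8.21% lower on that scale.

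The promoters with the highest ratios had at most 81 fragments in each of the other lists. Acsbg1, for an acyl-CoA synthetase, had pileups of 36, 53, 48 and 542 (log2 ratio 1.57, counting error 0.22). The tyrosine kinase gene Tec had 41 fragments with NT siRNA and 413 with H2A.Z siRNA (1.41), Prr13 54 and 530 (1.37), the BMP receptor gene Acvrl1 50 and 472 (1.31) and Ly6g 81 and 661 (1.10). Prr13 and Ly6g were not open at the TSS itself. Their summits lay at 1063, 1061, 1063 and 1063 bp and at −1203, −1167, −1204 and −1169 bp, negative being upstream. The lowest was Kbtbd11, with 82, 62, 127 and 172 fragments (−1.49, counting error 0.17). Klhl38 had 127 and 179 (−1.43), Gpc5, for a glypican, 171 and 256 (−1.34), Epb41l3, for a membrane skeleton protein, 44 and 68 (−1.30) and Fat3, for a large cadherin, 36 and 56 (−1.29). At these 5 sites the deeper list held more fragments but fewer relative to its background.

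Neuron marker promoters lay on the low side as a group. All 7 with a site had a ratio below 0, with a median of −0.62, compared with −0.039 over all genes with a site, and 4 were at least 1.5-fold lower, compared with 8.22% of all sites called in both lists. On the scale of the 1000 strongest sites this knockdown median was −0.56, 6 of 7 were below 0, Rbfox3 being the exception, and Nefm and Snap25 remained past 1.5-fold lower, whereas without centring 6 were. The 4 that were lower after centring were Snap25 (39 and 92 fragments, −0.69), Nefm (24 and 58, −0.65), Tubb3 (226 and 557, −0.62) and Nefl (23 and 57, −0.62), which encode a synaptic fusion protein, neurofilaments and a neuronal tubulin. Counting errors were 0.28, 0.35, 0.11 and 0.36, so Tubb3 was the best measured. Nefm and Nefl lie in the band of 25 to 50 fragments, in which all promoters had a median of −0.36 and 30.5% were lower, and Snap25 lies in that of 50 to 100 fragments. Tubb3 lies in the band of 200 to 400 fragments. In the genotype comparison the neuron markers had a median of −0.26 with 6 of 7 below 0. That median was 0.33 without centring and −0.50 on the scale of the 1000 strongest sites. Genes of promoter-binding factors (the SP, NF-Y and ETS families with Nrf1, Creb1, Atf1, Yy1 and Zfp143) had a median of 0.17, with 5 of 23 below 0 and none past 1.5-fold. The highest were Erf (0.45), Elk3 (0.44) and Yy1 (0.38). Among SWI/SNF genes the median was 0.14, and Dpf1, a subunit of the neuronal form of the complex, was the lowest at −0.61. Without centring both medians were below 0, at −0.10 and −0.13.

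The NT siRNA and untransfected null lists came from the same genotype and differed in transfection and in library number. Promoters had a median log2 ratio of 0.26 (SD 0.70 across sites) after a shift of 0.85 was removed, and distal sites one of −0.072. At least 1.5-fold higher in NT siRNA were 4656 promoters (33.7%), compared with 23.0% of all sites called in both lists, and 1660 (12%) were lower, compared with 21.5%. Chromosome 11 (0.85) and chromosome 19 (0.77) were highest and chromosome 13 (0.021) lowest. The spread was more than that of either comparison above, and transfection, library preparation and the single NT library cannot be told apart.

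Without centring, 7916 promoters were at least 1.5-fold higher in null, whatever their knockdown ratio, a count that mostly restates the shift. After centring, most promoters were within 1.5-fold in both the genotype and the knockdown comparison. Those within 1.5-fold numbered 12161 (88.1%), compared with 66.1% of distal sites. On the same centred scale, 17 were higher in null and lower after H2A.Z siRNA, 32 lower and higher, 21 higher in both and 86 lower in both. These were 0.12%, 0.23%, 0.15% and 0.62% of promoters, compared with 0.61%, 0.86%, 1.31% and 1.40% of distal sites. Among sites with at least 30 fragments in each list, 12 were of the first kind and 13 of the second. Iqub, a gene of motile cilia, had pileups of 34, 56, 45 and 79 (0.92 and −1.11). Lix1 (0.76 and −1.14), the sodium channel gene Scn9a (0.70 and −0.81), the metalloprotease gene Adamts20 (0.70 and −0.70) and the sugar transporter gene Slc2a6 (0.70 and −0.80) were next. In the other direction, Onecut2, for a homeodomain factor, had 95, 40, 43 and 299 fragments (−1.05 and 0.87), followed by the P-selectin gene Selp (−0.82 and 0.76), Lsp1, Misp and Cd59a. The Onecut2 summits lay at −60, −639, −566 and −54 bp from the TSS. Its ratios may therefore set different stretches of the merged site against each other.

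Across the promoters, Spearman's rho between the log2 ratios was 0.039, and between differences of fold percentile it was −0.16. In GC quintiles the first ranged from 0.0078 to 0.077, and in quintiles of the mean fold percentile it was 0.13, 0.10, 0.049, 0.022 and −0.019 from the weakest to the strongest. Percentiles themselves ranked alike between WT and null and between NT siRNA and H2A.Z siRNA, with a rho of 0.95 each. Sites share libraries, depth and base composition, and no p-value is given.

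The genotype ratio followed peak strength in promoters and distal sites alike. In bands of the percentile in the siRNA lists, which do not enter the null to WT ratio, the promoter medians were −0.15, −0.11, −0.047, 0.035 and 0.11 from the weakest to the strongest of 5 equal bands, and the distal medians were −0.12, −0.13, −0.057, 0.038 and 0.15. Both siRNA lists came from Anp32e null cells, so a site high in null cells can also rank high in them. In the knockdown comparison, banded by the percentile in WT and null, promoters had −0.0068, −0.044, −0.021, 0.0032 and −0.057, and distal sites 0.019, 0.012, 0.032, 0.074 and 0.080. Promoters and distal sites thus ran close to each other in the genotype comparison. In the knockdown comparison they were farthest apart in the strongest band.

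**Figure D5:**
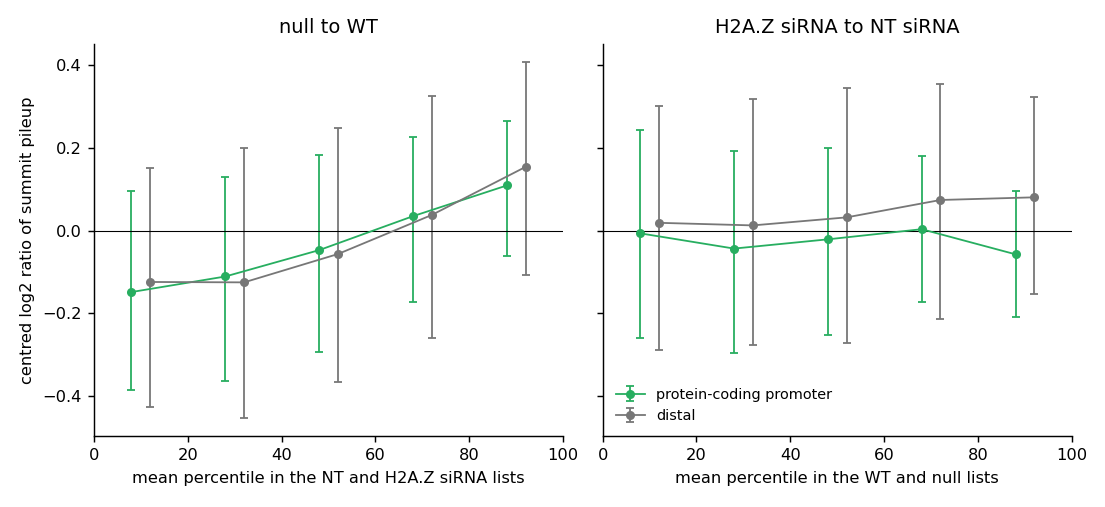
Median log2 ratio (vertical axis) in bands of the fold percentile from the lists not in the ratio (horizontal axis), with quartiles as error bars, for constitutive protein-coding promoter sites and distal sites, null to WT and H2A.Z siRNA to NT siRNA. Promoter medians run from −0.15 to 0.11 in the genotype comparison and from −0.057 to 0.0032 in the knockdown comparison.

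Promoters with an AP-1 match differed from the rest in the knockdown comparison. The 894 with a match had a median of 0.091 and those without one of −0.040, and the former were higher on 19 of 19 autosomes. They were also lower in GC, at 53.7% and 64.7%, and weaker, with median mean percentiles of 66.3 and 78.6. Within GC quintiles the difference was 0.10, 0.12, 0.064, 0.14 and 0.0059 from low to high GC, the last with 32 matched sites. Within quintiles of the mean percentile it was 0.22, 0.087, 0.14, 0.071 and 0.057 from weak to strong. Of the 287 promoters at least 1.5-fold higher after H2A.Z siRNA, 26.8% had an AP-1 match and 24.0% were CpG-rich, compared with 3.47% and 59.7% of the 519 lower ones. The 3419 promoters with an NF-Y match had a null to WT median of 0.098 and those without one of 0.033, with the former higher on 19 of 19 autosomes. They were stronger, with median mean percentiles of 83.0 and 76.2, and within quintiles of the siRNA percentile the difference was 0.055, 0.058, 0.043, 0.059 and 0.041. Of the 13 consensus sequences, AP-1 and NF-Y had the most autosomes higher with a match in their comparison. In the genotype comparison SP1 followed with 18 autosomes (0.071 with a match and 0.029 without). ETS and ZNF143 had 16 each, and CTCF had the fewest with 5.

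The genes of the study were then read one by one. Anp32e kept its promoter peak in the null lists, with pileups of 117, 125, 349 and 1522, a genotype ratio of 0.29 (counting error 0.19) and a knockdown ratio of 0.20 (0.086). A promoter peak does not report the transcript or whether the coding exons are present. H2afz, the other gene for H2A.Z, had a site at its TSS with 379, 477, 491 and 1958 fragments (0.53 and 0.069) and a downstream site at chr3:137865127-137866019 (mm10) with 163, 197, 174 and 931 (0.47 and 0.49). H2afv had 279, 265, 574 and 2309 (0.13 and 0.082). Sp1 had the most fragments of these genes, with 579, 641, 1272 and 5530 (0.35 and 0.19), and Nfyb, for an NF-Y subunit, had 216, 233, 450 and 2014 (0.31 and 0.24). Smarca4, for the SWI/SNF ATPase BRG1, had 72, 69, 185 and 818 (0.14 and 0.22). Cdkn1c, an imprinted inhibitor of the cell cycle, had the fewest fragments, with 52, 41, 80 and 335 (−0.14 and 0.14, counting errors 0.30 and 0.18), and Crabp1 had promoter peaks in 3 lists and so no constitutive site. After centring none of them reached 1.5-fold in either comparison. Without removal of the shift of 0.59, all of these sites but that of Cdkn1c were past 1.5-fold higher in null. That scale also put 7916 of the 13806 constitutive promoter sites past 1.5-fold higher.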

How the data were processed

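Groups followed the titles of the 9 libraries, which were prepared with a Nextera DNA Flex kit. Per the labels and the study's methods, the authors aligned paired reads to mm10 with Bowtie2, used Picard to remove duplicates and ran MACS2 on the merged libraries of a group. Submitters' processing notes also name deepTools. The deposited lists hold, per peak, a fold enrichment (a ratio with a pseudocount of 1), −log10 p-values and −log10 q-values, a browser score that was not used and the summit offset in bp, as counted by the authors' caller. Known artefact regions were not masked here.

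Pileups were solved from fold and p-value and were whole within 0.05 fragments for 100% of autosomal peaks. This and the site merging were tested on simulated data. Annotation was GENCODE M21. For each site the highest peak of a list stood for that list. Fewer fragments give larger counting errors. In each ratio the list with fewer summit fragments adds the larger part of that error. By median pileup at promoters these were null (122, compared with 137 in WT) and NT siRNA (227, compared with 866 after H2A.Z siRNA). No significance test was made, since each group was 1 list. A fold of 1.5 was used for counts.

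The members, gene lists and consensus sequences were chosen with earlier results of these data known. Named genes were genes of the study, the 5 highest and 3 lowest mean percentiles, the 5 highest and lowest ratios among sites with 30 or more fragments in every list, up to 5 with opposite changes, the 3 longest sites, the leading and the missing genes of each list, and the highest site per consensus. A further marker list is not reported here. Other genes named from the lists (the extreme ratios, the cell identity check and the divergent pair) were chosen after their values were seen. Alternatives were a −log10 q of 5, equal list lengths, pileups thinned to the background of the shallowest list (which does not equalise summit pileups), a merging gap of 147 bp, windows of 500 bp, basic transcripts, each list's own peak in the window, other scalings, other rankings, 401 bp windows and null summits. Autosome centring, pileup percentiles and sites with the TSS inside every peak were added after seeing the data. Python 3.11.15, NumPy 2.4.6, SciPy 1.17.1, pandas 2.3.3, pysam 0.24.0, bedtools 2.31.1 and matplotlib 3.10.9 were used.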

Additional observations from a re-analysis of the deposited data

Results flagged for a closer look

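The comparisons used the autosomes only, and constitutive protein-coding promoter sites were also present on the X chromosome, where 441 of 1481 sites with a peak in every list met the same rule. Their median log2 ratio was 0.17 for null to WT and −0.0043 for H2A.Z siRNA to NT siRNA. In the genotype comparison 5.90% were at least 1.5-fold higher and 4.99% lower on the scale centred on autosomal sites, compared with 7.32% and 10.6% of all autosomal sites called in both lists. The split depends on that scale, and no share over all X-chromosome sites was computed. The sex of the cells was not given in the sources used here, and its part in these values was not tested.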

How the results depend on the processing

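No paired analysis was possible because libraries of a group had been merged into 1 list, which also left no replicate to leave out. Of the values recomputed under alternatives, 78 stayed within their limit (the Wilson interval of a share, the SD over autosomes of a median, a factor of 1.5 for a count), 35 went beyond it and 3 had the other sign. The number of constitutive promoter sites stayed within 1.5-fold of 13806 throughout.

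The share of constitutive sites at protein-coding promoters was 26.0% at a −log10 q of 5, 24.6% with equal list lengths, 25.1% after thinning to the lowest background, 22.9% with 500 bp windows, 22.9% with basic transcripts and 23.5% when each list's own peak had to reach the window. The share of genes was 62.5%, 63.3%, 63.2%, 63.2% and 63.8% under the first 5 of these. Without centring, the null to WT median was 0.64 with 7916 sites higher and 33 lower, and the H2A.Z siRNA to NT siRNA median was −0.31 with 71 and 2101. Scaled on the 1000 strongest sites, the medians changed sign to −0.19, with 93 and 1603, and 0.021. These scalings differ from the main one by a constant per comparison. The shares of all sites past 1.5-fold under them were not computed. Centring each autosome left 249 sites higher in null. Rank differences turned the correlation to −0.16. Median percentiles in WT, null, NT siRNA and H2A.Z siRNA were 83.5, 82.6, 86.7 and 88.6 by −log10 p and 84.9, 83.9, 87.2 and 89.1 by pileup. Other causes were not tested. Depth limits the ratios of weak sites most.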
